A study of Rattus norvegicus with 9 samples.

Results

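HBZY-1 cells labelled as an LPS-induced model were compared with HBZY-1 control cells. HBZY-1 is an established rat line of glomerular mesangial cells, and LPS (lipopolysaccharide) is a glycolipid of the outer membrane of gram-negative bacteria. The comparison took 6 of the 9 RNA-seq libraries of the series, 3 per group, and left out the 3 libraries of cells given a water extract of the leech Poecilobdella manillensis. The labels give no genotype, LPS dose, exposure time or vehicle for either group, and both groups are the same line, so no other cell line or primary culture stands beside it. The series calls the replicates biological but does not say that they came from separate cultures. The p-values therefore measure the spread between these libraries, which may be partly technical.

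Mesangial cells hold the capillary loops of the kidney glomerulus together, secrete the matrix around them and contract. As background, LPS is sensed through the receptor TLR4 with its partners CD14 and MD-2, and the signal runs through MyD88 and TRIF to NF-kB and interferon regulatory factors. In mesangial cells this pathway is known for chemokine, cytokine and complement production, and long-lasting inflammation of the glomerulus is known for matrix build-up.

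Abundance is in TPM: a transcript's read share corrected for its length and scaled so that a library sums to 1000000, which lets levels be compared between genes. The gene table lists 30560 genes by Ensembl rat identifier, and it pairs no identifier with a gene name. The reference table used here gives names for 47357 rat genes but an Ensembl identifier for 0 of them, so no identifier could be matched to a name. The inflammatory, matrix and metabolic genes were not analysed here by name, and neither were markers of mesangial or other cell types. The response is described by its extent, its levels and its transcripts. It is also described by the 2 identifiers with the smallest p in each direction, among called genes whose groups' values do not overlap. A gene was tested where its mean over the 6 libraries was at least 1 TPM, which 12166 genes met.

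The libraries fell into their labelled groups. Pearson's r across the tested genes on the log2(TPM + 1) scale was 0.9763 to 0.9814 between control libraries, 0.9814 to 0.9841 between LPS-induced libraries and 0.9578 to 0.9685 between libraries of different groups. Between 15618 and 15837 genes were above 0 TPM in a library. Between replicate libraries a gene's TPM typically varied by 5.16% (control) or 5.80% (LPS-induced), the median coefficients of variation. The files hold no read counts, so sequencing depth is unknown.

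The LPS-induced cells differed from control cells broadly but mostly by small amounts, and changes of 4-fold or more were mainly increases. By limma's moderated test with Benjamini-Hochberg adjustment over the tested genes (adjusted p below 0.05), 1047 genes rose (8.61%) and 3391 fell (27.9%), together 36.5% of those tested. Of the genes that rose, 65.6% changed by less than 0.5 on the log2(TPM + 1) scale, and of those that fell, 76.9%. The middle of the 1047 increases lay at a log2 fold change of 0.35, with quartiles of 0.24 and 0.68, and the middle of the 3391 decreases at -0.32, with quartiles of -0.22 and -0.48. The median standard error of a fold change was 0.065. Changes of at least 2-fold were called in 159 genes that rose (1.31%) and in 144 that fell (1.18%); with a pseudocount of 0.1 the order turned, to 191 and 228, and with a pseudocount of 5 it was 95 and 50. At 2 or more on the log2 scale, 4-fold, 59 genes rose and 9 fell, against 91 and 25 with a pseudocount of 0.1 and 30 and 2 with a pseudocount of 5. At 3 or more, 25 rose and 1 fell, against 50 and 5 with a pseudocount of 0.1 and 12 and 0 with a pseudocount of 5. Without control replicate 1 the decreases numbered 17 at 2 or more and 11 at 3 or more, and without LPS-induced replicate 1 the 2-fold counts were 158 higher and 165 lower. The greatest increase was 6.82 and the greatest decrease -3.74 on that scale. The values of the 3 LPS-induced libraries lay wholly outside those of the 3 control libraries for 50.2% of tested genes.

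The excess of decreases among small changes depended on how the libraries were scaled. Decreases made up 76.4% of called genes with TPM as deposited, 50.7% after the libraries were rescaled by the median of their ratios (1927 genes higher and 1984 lower), and 55.6% after quantile normalization (1705 and 2136). The median log2 fold change over the tested genes was -0.08 as deposited and 0.005 after rescaling. Median-of-ratios rescaling evens out the typical ratio between libraries, and quantile normalization gives all libraries the same distribution. A median near 0 and a more even split therefore follow largely from the methods. They do not show which scaling is right. Under either scaling all 159 genes with an increase of 2-fold or more were again called higher, and 142 of the 144 with such a decrease were again called lower. Of the 3391 genes that fell, 1984 were called lower after median-of-ratios rescaling and 2127 after quantile normalization, and 0 were called higher by either. Of the 1047 genes that rose, all were called higher after median-of-ratios rescaling, which shifts all genes upwards in LPS-induced libraries. After quantile normalization 1038 were called higher and 2 lower.

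**Figure D1:**
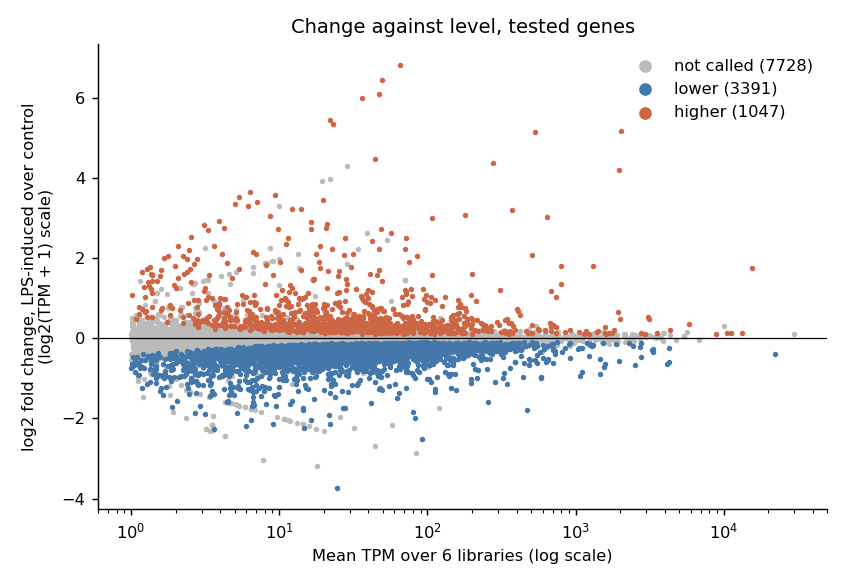
Each point is 1 of the 12166 tested genes, with its mean TPM over the 6 libraries on a log axis and its log2 fold change (LPS-induced over control, log2(TPM + 1) scale) on the vertical axis; colours give the 1047 genes called higher, the 3391 called lower and the 7728 not called. Increases reach 6.82 and decreases -3.74, and most called decreases lie close to 0.

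Called genes were found from scarce to abundant transcripts, and the share called differed with level. Among 2219 genes with a mean of 1 to 5 TPM, 5.50% rose and 15.1% fell. Among 4506 genes of 20 to 100 TPM, 9.99% rose and 32.0% fell. Among the 282 genes most abundant by mean over the 6 libraries, at 500 TPM or more, 17.7% rose and 25.5% fell. There 11 genes rose by 2-fold or more while 0 fell by as much. The levels were set by the 6-library mean, so a gene could enter a level only through the group where it was high. Genes with control means of 108 and 203 TPM entered the highest level through LPS-induced means of 3929 and 3756 TPM. The counts by level are therefore a description. The median standard error of a fold change was 0.135 for genes of 1 to 5 TPM and 0.040 at 500 TPM or more.

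After rescaling, the share of genes called higher at 500 TPM or more was 36.5% against 14.5% called lower. At 1 to 5 TPM it was 7.08% against 11.0%. With TPM as deposited decreases outnumbered increases at every level. After rescaling this held at 1 to 5 and at 5 to 20 TPM, and from 20 TPM upwards increases outnumbered decreases.

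**Figure D2:**
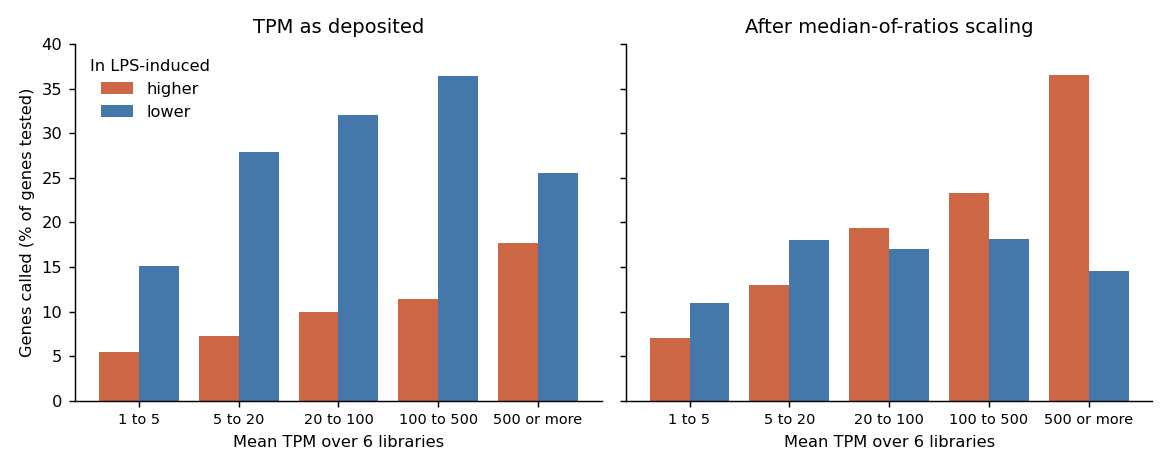
Bars give the percent of tested genes called higher (orange) or lower (blue) in LPS-induced cells, by mean TPM over the 6 libraries, with TPM as deposited on the left and after median-of-ratios scaling on the right. At 500 TPM or more the order of the bars turns, from 17.7% higher and 25.5% lower to 36.5% and 14.5%.

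Some tested genes had a mean below 1 TPM in one group and above it in the other. Such a gene passed the filter on the 6-library mean only through the group where it was high, so the counts are a description. Genes with a control mean below 1 TPM that rose to an LPS-induced mean of at least 1 TPM numbered 63, and 12 of them reached at least 10 TPM. In the other direction, 60 genes fell from at least 1 TPM to below it, and 0 fell from 10 TPM or more to below 1 TPM. Membership of the most abundant genes changed little. Of the 100 genes most abundant by mean TPM in control cells, 93 were also among the 100 most abundant in LPS-induced cells. Of the 7 that entered, 6 were called higher, against 8.61% of all tested genes. Entry itself favours genes that rose, so this is a description. Among the 50 most abundant, 2 of the 4 that entered were called higher, and among the 500 most abundant, 21 of 34. Single libraries of the same group shared 96 to 98 of their 100 most abundant genes, and libraries of different groups shared 91 to 95.

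Among the genes that rose, ENSRNOG00000046834 had the smallest p. It stood at 0.12, 0.13 and 0.19 TPM in control libraries 1 to 3 and at 103.1, 96.6 and 96.7 TPM in LPS-induced libraries 1 to 3. The groups were far apart. Every control value was below 1 TPM, so the gene passed the filter only through its LPS-induced libraries. Its p and fold change are therefore given as a description. The means were 0.147 ± 0.038 TPM and 98.8 ± 3.7 TPM (SD, n = 3 each), and the log2 fold change was 6.44 ± 0.057 (SE; limma adjusted p = 3.04e-09). Because the control values were near 0, a pseudocount of 0.1 gave a log2 fold change of 8.66 and a pseudocount of 5 gave 4.33. By level it moved from rank 12128 of the tested genes in control cells to rank 1461. In LPS-induced cells 92.1% of its TPM lay in 1 of its 3 transcripts above 0, which was listed at 0 in every control library and at 95.5, 88.3 and 89.0 TPM in the LPS-induced libraries.

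ENSRNOG00000000239 was the other identifier named among genes that rose, and unlike the first it was well expressed in control cells. Its control values were 24.5, 25.6 and 23.6 TPM, and its LPS-induced values were 538.9, 521.4 and 535.2 TPM. No library of one group came near the other. The means of 24.6 ± 0.99 and 531.9 ± 9.2 TPM (SD, n = 3 each) gave a log2 fold change of 4.38 ± 0.040 (SE; limma adjusted p = 3.04e-09), and the gene moved from rank 5369 to rank 254. All of its TPM lay in 1 transcript.

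Among the genes that fell, ENSRNOG00000010248 had the smallest p. It stood at 134.1, 132.5 and 130.3 TPM in the control libraries and at 31.2, 32.6 and 34.6 TPM in the LPS-induced libraries. The spread within each group was small beside the gap between them. The log2 fold change was -1.98 ± 0.046 (SE; limma adjusted p = 3.44e-07), and its rank went from 1104 to 4171.

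ENSRNOG00000039902 fell further, with a wider spread among the control libraries. The control values were 167.7, 145.2 and 157.0 TPM and the LPS-induced values 26.0, 29.3 and 25.2 TPM. The means were 156.6 ± 11.2 and 26.8 ± 2.2 TPM (SD, n = 3 each), which is -2.50 ± 0.073 on the log2 scale (SE; limma adjusted p = 1.09e-06). Both genes that fell had 1 transcript above 0 TPM.

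**Figure D3:**
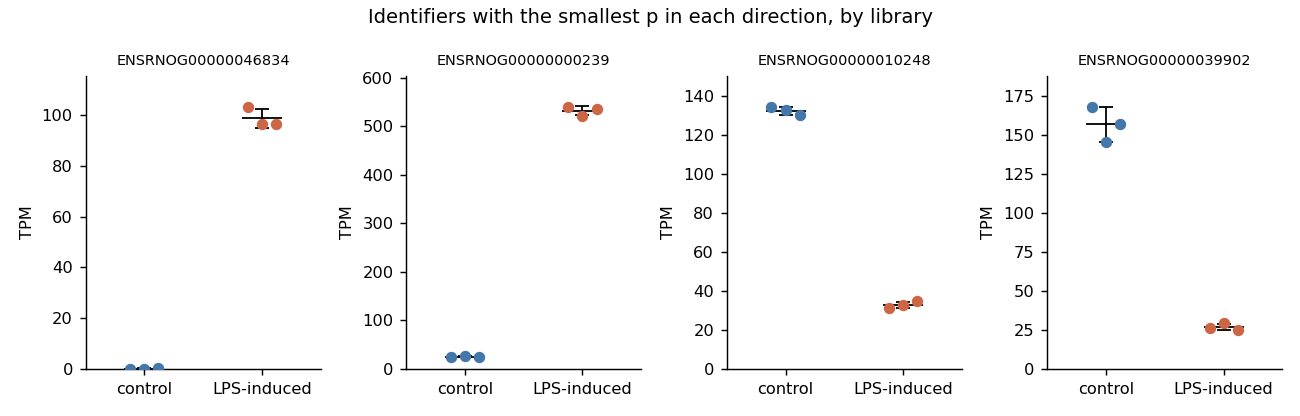
TPM of the 4 named identifiers in each library, with control libraries in blue and LPS-induced libraries in orange; black bars give the mean and SD of 3 libraries, and each panel has its own axis starting at 0. The groups do not overlap in any panel, which was a condition for choosing the identifiers. The first 2 identifiers stand at 96.6 TPM or more only in LPS-induced libraries, and the last 2 fall to between 25.2 and 34.6 TPM there.

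In TPM as deposited, the gain was concentrated in few genes and the loss was spread over many. Summed over the tested genes, 79916 TPM was gained by 3975 genes with a higher mean and 79840 TPM was lost by 8182 genes with a lower mean. These sums are nearly equal because each library is scaled to the same total. The same scaling lowers the share of other genes when some genes gain. Its part in the 8182 losses was not tested, and the sums were not recomputed after rescaling. A set of 15 genes held 50% of the gain, while 189 genes were needed for 50% of the loss. The 159 genes at least 2-fold higher held 45.9% of the gain, and the 144 at least 2-fold lower held 5.06% of the loss. These 159 genes took 1.23%, 1.17% and 1.21% of all TPM in the control libraries and 4.83%, 4.99% and 4.80% in the LPS-induced libraries. They were chosen by this same comparison, so the shift is a description of their weight and not a further test.

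A single gene accounted for 21.1% of the gain. It was already abundant in control cells, at 7484, 6766 and 7221 TPM, and stood at 24378, 24339 and 23424 TPM in LPS-induced cells. That is a move from the eighth to the second most abundant gene, with means of 7157 ± 363 and 24047 ± 540 TPM (SD, n = 3 each). The log2 fold change was 1.75 ± 0.045 (SE; limma adjusted p = 5.77e-07). The gene with the next largest gain had a much lower starting level. It stood at 98.0, 119.9 and 106.2 TPM in control cells and at 3747, 4276 and 3763 TPM in LPS-induced cells, which is 5.17 ± 0.082 on the log2 scale (SE; limma adjusted p = 3.62e-08), and went from rank 1406 to rank 19. The third went from 203.2 ± 19.2 to 3756 ± 79 TPM and from rank 694 to rank 22. These genes were chosen after their values were seen.

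The largest loss was smaller and came from a gene that remained among the most abundant. Its mean was 25263 ± 917 TPM in control and 19113 ± 554 TPM in LPS-induced cells (SD, n = 3 each), or -0.40 ± 0.041 on the log2 scale (SE; limma adjusted p = 0.000377), and it held 7.70% of the whole loss.

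With TPM recomputed to a total of 1000000 without the gene of the largest gain, the median log2 fold change over the tested genes moved from -0.08 to -0.06. It moved to -0.04 when all 159 genes at least 2-fold higher were left out. The genes left out were chosen for their increase in this same comparison. Removing them must raise the share of the remaining genes in LPS-induced libraries, so the direction of both moves was fixed in advance. The moves are a description and not a test.

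**Figure D4:**
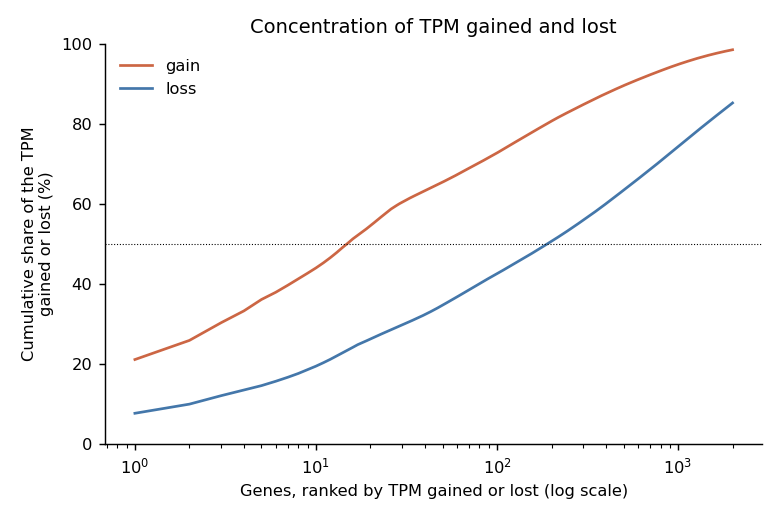
Cumulative percent of the TPM gained (orange) and lost (blue) between control and LPS-induced means, over genes ranked by the size of their gain or loss on a log axis; the dotted line marks 50%. The gain reaches 50% with 15 genes and the loss with 189.

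Transcripts were compared in the same way. Of 19357 transcripts tested, 987 rose (5.10%) and 2653 fell (13.7%) by limma at an adjusted p below 0.05, together 18.8%. These counts rested on all 6 libraries: without control replicate 1 they were 629 and 1469, without LPS-induced replicate 2 they were 653 and 1628, without control replicate 3 the decreases numbered 1532, and without LPS-induced replicate 3 the increases numbered 651. After median-of-ratios scaling 1543 rose and 1507 fell.

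Most of the genes that changed by 2-fold or more and had several tested transcripts had each of them called in the same direction. Of the 159 genes at least 2-fold higher, 151 could be linked to tested transcripts, and 111 of these had a single one, for which the transcript largely repeats the gene's value. The other 40 had several tested transcripts. In 27 of these 40, every tested transcript was called higher, and in 13 some were and some were not. Of the 144 genes at least 2-fold lower, 35 had several tested transcripts, and in 24 of the 35 each of them was called lower. Over all tested transcripts 5.1% rose and 13.7% fell. The genes were chosen by their change in the same libraries, and a gene's TPM is the sum of its transcripts' TPM. Agreement in direction is therefore partly built in, and these counts are a description.

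A smaller set of genes had transcripts that moved apart. Among 4865 genes with 2 or more tested transcripts, 75 (1.54%) had at least 1 transcript that rose and 1 that fell. Of the 75, 42 were not called at the gene level, 13 were called higher and 20 lower, and in 13 of the 75 both changes were at least 2-fold. The count depended on which library was left out: it was 33 without control replicate 1, 40 without control replicate 2, 66 without control replicate 3, and 48, 38 and 39 without LPS-induced replicates 1, 2 and 3. Without the mean-variance trend it was 46.

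The leading transcript, the one with the highest TPM of its gene, was the same in all 3 libraries of each group for 6000 of 7176 genes with 2 or more transcripts above 0 TPM. In 39 of the 6000 (0.65%) the control leader and the LPS-induced leader were different transcripts. In 9 of the 39 the control leader fell and the LPS-induced leader rose past the threshold. Over all tested transcripts 13.7% fell and 5.10% rose. The 39 were chosen for a change of leader, which favours such calls, so the count is a description. The 3 of the 9 with the widest difference between the changes of the leaders are given next, a choice made after their values were seen.

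In the first gene the total differed little, at 291.8 ± 10.6 TPM in control and 271.5 ± 1.6 TPM in LPS-induced cells (log2 fold change -0.10 ± 0.036 SE; limma adjusted p = 0.0581), while its transcripts exchanged places. The control leader stood at 238.3, 188.2 and 149.0 TPM in control libraries and at 2.15, 5.24 and 11.8 TPM in LPS-induced libraries. The LPS-induced leader stood at 45.2, 94.3 and 148.1 TPM in control libraries and at 264.8, 265.2 and 254.9 TPM in LPS-induced libraries. Within the control group a library with less of one transcript had more of the other, and in control library 3 they were almost level. The division of reads between similar transcripts is an estimate, and its part in this result was not tested.

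In the second gene the total rose from 12.04 ± 1.1 to 85.8 ± 4.8 TPM. The rise lay in the LPS-induced leader, which stood at 1.08, 0.90 and 1.22 TPM in control libraries and at 73.1, 79.9 and 80.9 TPM in LPS-induced libraries. Its log2 fold change was 5.26 ± 0.084 (SE; limma adjusted p = 5.8e-07). The control leader fell from 11.0 ± 0.99 to 7.81 ± 1.1 TPM, or -0.45 ± 0.117 on the log2 scale (limma adjusted p = 0.0426). In the third gene the control leader stood at 2.08, 2.33 and 1.80 TPM in control libraries and was listed at 0 in all LPS-induced libraries. The LPS-induced leader was listed at 0 in all control libraries and stood at 17.0, 15.0 and 10.9 TPM in LPS-induced libraries.

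**Figure D5:**
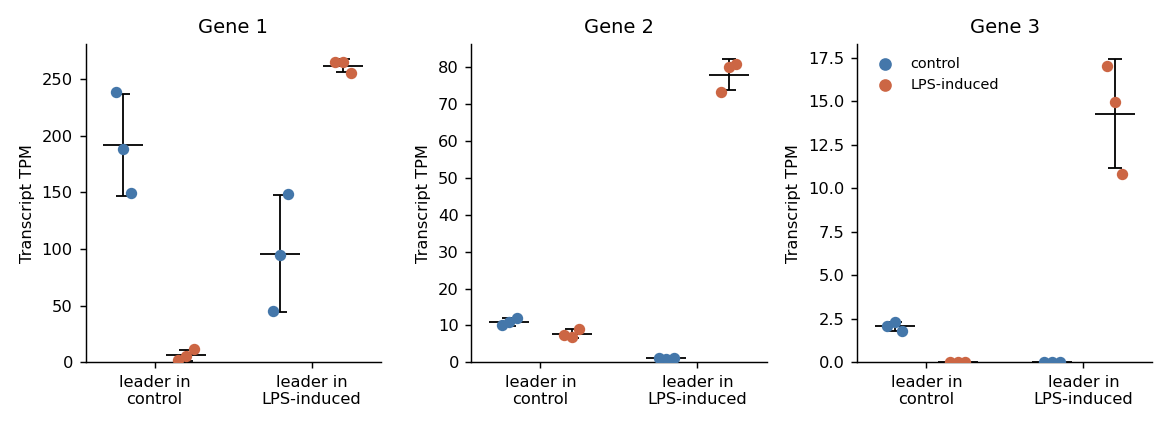
TPM of the transcript that leads in control cells and of the one that leads in LPS-induced cells, for 3 genes in which they differ; points are libraries (control blue, LPS-induced orange), black bars give the mean and SD of 3, and each panel has its own axis from 0. In gene 1 the leaders exchange places while the gene's total goes from 291.8 to 271.5 TPM, and in gene 2 the LPS-induced leader reaches 73.1 TPM or more.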

How the data were processed

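The deposited TPM values of genes and transcripts, rounded to 2 decimals, were used as the authors gave them. HISAT2 2.1.0, RSEM 1.3.3 and fastp are listed, without roles or settings, per the submitters' processing notes; build, annotation and strandedness: not given in the sources used here. Columns were assigned by the code opening each library's title. Features averaging 1 TPM or more in the 6 libraries were fitted as log2(TPM + 1) with limma 3.58.1 in R 4.3.3 (6 libraries, 4 residual degrees of freedom, mean-variance trend, two-sided, Benjamini-Hochberg). A fold change on this scale understates changes of low genes. The procedure was tested on simulated data, with values drawn independently for each gene and no shift of scale between libraries. That test cannot speak to the dependence of the counts on scaling. Of the tested genes, 53 had values identical to another gene's. A run of neighbouring transcripts was assigned to a gene where their TPM added up to the gene's within 0.006 TPM per rounded value, leaving out 156 genes with more than 1 possible link. The identifiers named are the 2 with the smallest p in each direction whose groups do not overlap. The comparison and its 23 gene lists, none of which could be matched, were chosen with earlier results of these data known. Alternatives were the pseudocount, filter, scaling, replicate block, all 9 libraries, no trend and leaving out each library. The replicate numbers are not stated to pair cultures, so the main fit did not pair them. Deviations of same-numbered libraries correlated at 0.022 to 0.067, and those of differently numbered libraries at -0.113 to 0.093. With so few libraries these values cannot exclude pairing.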

Additional observations from a re-analysis of the deposited data

How the results depend on the processing

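For the 4 identifiers, no alternative run changed a direction or a call. Counts that moved by over 1.5 times did so with scaling, pseudocount, filter, trend, the fit of all 9 libraries or a left-out library; the cause was not tested. Median-of-ratios scaling gave 1927 genes higher and 1984 lower, and 1543 transcripts higher and 1507 lower. Quantile normalization gave 1705 genes higher and 2136 lower, and 1664 transcripts lower. Genes at least 2-fold lower numbered 228 with a pseudocount of 0.1 and 50 with 5, and those at least 2-fold higher 191 and 95. At 2 or more on the log2 scale increases outnumbered decreases under every alternative run; decreases of that size went from 9 to 14 with all 9 libraries fitted. Genes with transcripts called in opposite directions, counted after the values were seen, numbered 43 without a filter and 46 without the trend. With 1 library left out, genes higher ranged from 832 to 987, genes lower from 2472 to 2979, those at least 2-fold higher from 158 to 169 and lower from 128 to 165. Non-overlapping genes ranged from 6779 to 7264, above the 6109 with all 6 libraries. Groups with fewer values overlap less easily, so this range cannot show how stable that count is. Transcripts higher ranged from 629 to 787 and lower from 1469 to 2039, and genes with opposite transcripts from 33 to 66. With the replicate block, 1001 genes were higher and 3107 lower, and 774 transcripts higher and 1910 lower, and no count of genes or transcripts moved by over 1.5 times. The files hold no read depth, so the number of reads behind a low TPM is unknown.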

Other observations

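Of the genes that did not pass the test, 107 had a fold change of 2 or more. In LPS-induced cells 43 of them were higher and 64 lower. The groups' values did not overlap in 4 of the 107, against 6109 of all 12166 tested genes. Failing the test was a condition for this set, so the low count is a description. Of the 107, 53 were above 0 TPM in 1 of the 6 libraries only. Over all tested genes, 54 were of this kind, with values from 6.69 to 267.5 TPM (median 33.6) in the library concerned and 0 in the other five. Control library 3 held 19 of the 54, LPS-induced library 1 held 10, control libraries 1 and 2 and LPS-induced library 2 held 8 each, and LPS-induced library 3 held 1. None of the 54 was called by limma.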
